A study of Caenorhabditis elegans with 15 samples.

Results

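The germline stem cell and P granule genes of Caenorhabditis elegans described here are glp-1, fbf-1, fbf-2, gld-1, mex-3, pgl-1, pgl-3 and glh-1. They were taken by name from the table of raw gene counts, in which all 8 were found among 20191 genes. Whole worms were profiled by messenger RNA sequencing on day 1 of adulthood, without stress, in 15 libraries, 5 for each of 3 strains. One strain, the double mutant, carried both atfs-1(tm4525) and fndc-1(rny14), a second carried fndc-1(rny14) alone, and the third was N2, the wild type. FNDC-1 is a receptor for mitophagy, the removal of damaged mitochondria, and ATFS-1 activates genes of the mitochondrial stress response. The comparisons ask how transcripts differ when fndc-1 is mutated and how the double mutant differs from fndc-1. Worms with the atfs-1 mutation alone were not profiled here, so in the double mutant the effect of that mutation by itself and its effect on a fndc-1 background cannot be told apart. The labels describe biological samples but name no separate cultures, so the p-values rest on a spread between libraries that may be partly technical.

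The adult hermaphrodite gonad holds germ cells in order of maturity, from dividing stem cells at the distal end to oocytes at the proximal end. A somatic niche cell presents the ligand LAG-2, which activates the Notch receptor GLP-1 on nearby germ cells and, through the DNA-binding protein LAG-1, the transcription of lst-1 and sygl-1. The PUF proteins FBF-1 and FBF-2 then repress messenger RNAs that drive meiosis, among them that of gld-1, whose product is a translational repressor that promotes entry into meiosis. P granules are condensates of RNA and protein at the nuclei of germ cells, scaffolded by PGL-1 and PGL-3 and organised with the helicase GLH-1. Transcripts of the 8 genes are made largely in the germ line, so in RNA of whole worms fewer germ cells and less RNA per germ cell cannot be told apart.

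Libraries held 46984106 to 61921123 counts, and 15032 genes passed the filter on low counts, all 8 germline genes included. The fndc-1 transcript averaged 7.95 ± 1.27 CPM (counts relative to library size, scaled by TMM factors) in the double mutant and 7.39 ± 0.130 CPM in the fndc-1 mutant, against 40.9 ± 3.83 CPM in wild type (SD, n = 5 each). The atfs-1 transcript averaged 75.4 ± 4.59 CPM in the double mutant, 93.4 ± 4.66 CPM in fndc-1 and 104.0 ± 4.92 CPM in wild type, a limited check, since parts of a mutated gene can still be transcribed. Markers of the tissues of a whole worm were present. The summed level of 11 oocyte and eggshell genes was 8638 to 15678 CPM in the double mutant, 11630 to 14870 CPM in fndc-1 and 13766 to 15987 CPM in wild type. Somatic gonad markers summed to 305 to 717 CPM in the double mutant, 580 to 666 CPM in fndc-1 and 498 to 727 CPM in wild type. Sperm markers summed to 986 CPM in double-mutant library 4, against 208 to 327 CPM in the other double-mutant libraries. Double-mutant library 2 stood apart from the other libraries of its strain, and fndc-1 libraries 4 and 5 stood apart from fndc-1 libraries 1, 2 and 3. Values without them are given beside the results they touch most.

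Levels of the 8 genes spanned a wide range. Per kilobase of exon, the stem cell genes fbf-1 and fbf-2 were the lowest and gld-1 the highest. In the double mutant the levels in CPM per kilobase were 482 ± 166 for gld-1, 195 ± 73 for mex-3, 190 ± 34.8 for pgl-1, 188 ± 46 for glh-1, 118.9 ± 27.5 for pgl-3, 46.8 ± 15.9 for glp-1, 12.8 ± 2.43 for fbf-1 and 9.67 ± 1.52 for fbf-2 (SD, n = 5). In fndc-1 the levels per kilobase were 551 ± 66.1 for gld-1, 221 ± 30.2 for mex-3, 198 ± 27.2 for pgl-1, 195 ± 32.1 for glh-1, 126 ± 24.2 for pgl-3, 55 ± 5.52 for glp-1, 14.3 ± 1.29 for fbf-1 and 10.6 ± 0.886 for fbf-2. Wild type held 552 ± 46.9 for gld-1, 238 ± 20.2 for mex-3, 189 ± 11.9 for pgl-1, 162 ± 19 for glh-1, 131 ± 15.3 for pgl-3, 54.9 ± 5.91 for glp-1, 12.8 ± 1.2 for fbf-1 and 8.80 ± 0.647 for fbf-2. The order of the means was the same in the 3 strains. The ranges of pgl-1 and glh-1 overlapped in all 3 strains. Within a library pgl-1 lay above glh-1 in 4 of 5 double-mutant, 3 of 5 fndc-1 and 5 of 5 wild-type libraries. Within every wild-type library mex-3 lay above pgl-1, fbf-1 above fbf-2 and glh-1 above pgl-3, although the wild-type ranges of glh-1 and pgl-3 overlapped. In fndc-1 mex-3 overlapped with pgl-1 and glh-1, and pgl-3 lay below these 3 genes. In the double mutant, neighbours in this order overlapped in their ranges except that glp-1 lay below pgl-3 and above fbf-1. Within every double-mutant library, however, gld-1 lay above mex-3, glh-1 above pgl-3 and fbf-1 above fbf-2.

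**Figure D1:**
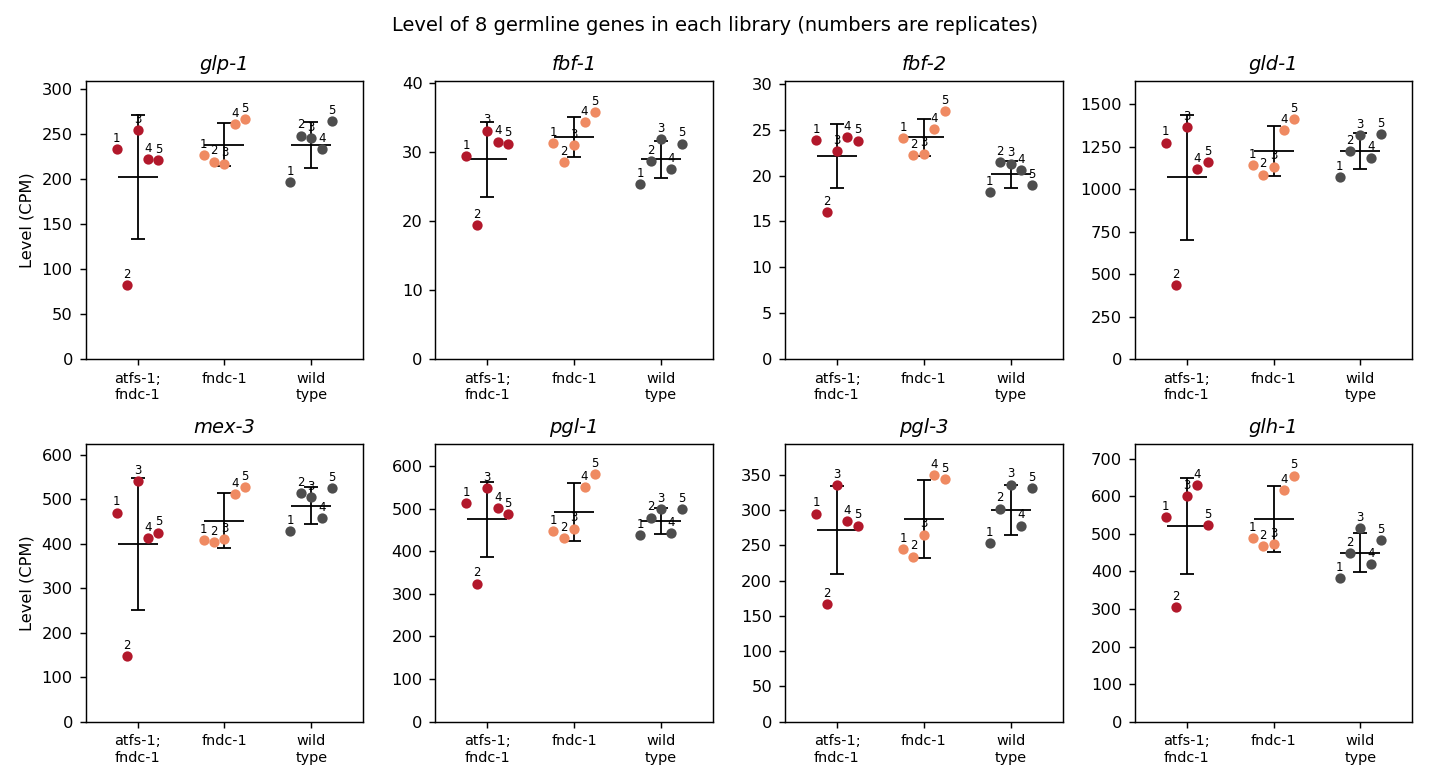
Level of each of the 8 germline genes (y axis, CPM) in the libraries of the double mutant, fndc-1 and wild type (x axis). Points are libraries with their replicate numbers, and bars are the mean and SD of 5 libraries. Double-mutant library 2 is the lowest of the 15 points in every panel, and fndc-1 libraries 4 and 5 lie above fndc-1 libraries 1, 2 and 3.

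None of the 8 genes passed the test between any 2 strains. The test was the quasi-likelihood F-test of edgeR with Benjamini-Hochberg adjustment over all 15032 genes and a threshold of 0.05. For fndc-1 against wild type 0 of 8 passed, where 1.87% of all genes did, and 1 of 8 had an unadjusted p under 0.05, against 14.9% of all genes. Between the double mutant and wild type 0 of 8 passed, against a background of 4.71%, and 0 of 8 had an unadjusted p under 0.05, against 21.3%. Between the double mutant and fndc-1 0 of 8 passed, against 0.978%, and 0 of 8 had an unadjusted p under 0.05, against 11.4%. DESeq2 also called 0 of 8 in each comparison. Read against these shares, counts of 0 and 1 among 8 genes do not set the group apart.

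The intervals show which sizes of change this fit allows. Its estimate of the spread of each gene is shared by the 3 strains. The spread of double-mutant library 2 therefore also enters the intervals for fndc-1 against wild type. With only these strains fitted in edgeR, 575 of 14439 genes passed, in place of 281 of 15032, and 0 of the 8 genes did. For fndc-1 against wild type the median log2 fold change of the 8 genes was 0.03, beside 0.003 for all genes, with 5 values above 0 and 3 below, and the 95% intervals of the single genes reached from -0.57 to 0.59. With the double mutant set against wild type, this median was -0.07, beside -0.002 for all genes, with 3 above 0 and 5 below and intervals between -0.75 and 0.54. Between the double mutant and fndc-1 the median was -0.14, beside 0.02 for all genes, with 0 above 0 and 8 below and intervals between -0.66 and 0.29. These comparisons share strains and are not independent of one another. The 8 values below 0 in the last comparison depended on double-mutant library 2. Without it mex-3, pgl-1, pgl-3 and glh-1 had log2 values of 0.02, 0.05, 0.05 and 0.08.

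**Figure D2:**
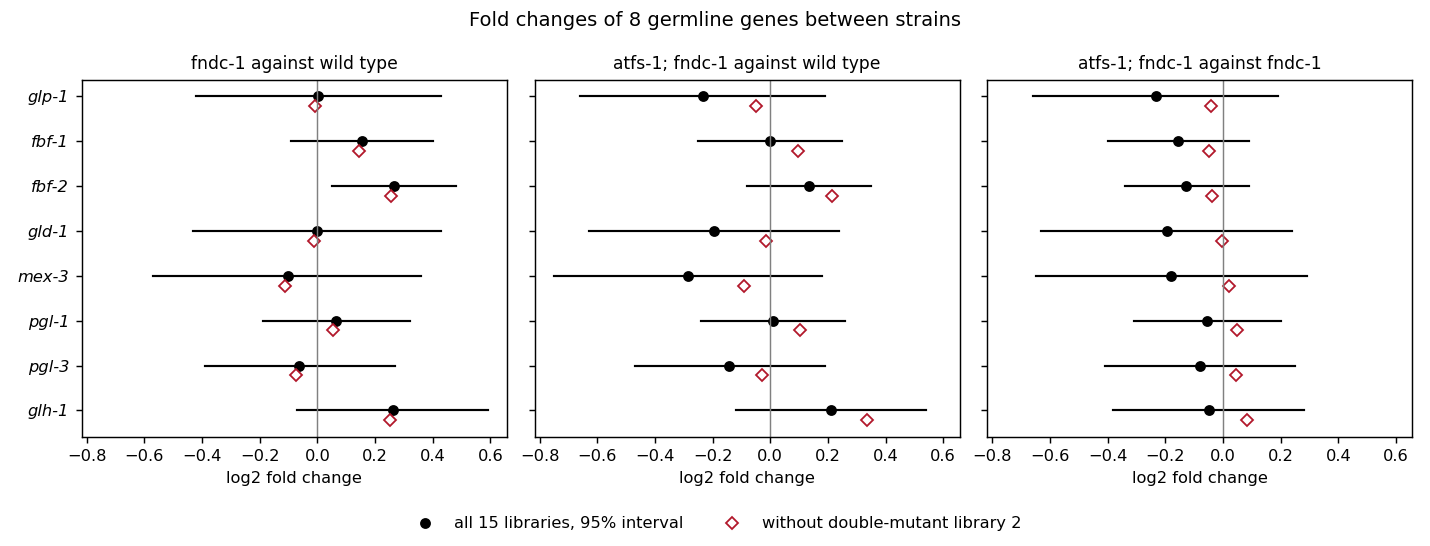
Log2 fold change (x axis) of the 8 genes (y axis) for fndc-1 over wild type (left), the double mutant over wild type (middle) and the double mutant over fndc-1 (right). Black points and lines are the values and 95% intervals from all 15 libraries, and open diamonds are the values without double-mutant library 2. All intervals include 0 except that of fbf-2 for fndc-1 against wild type, and the diamonds of the right panel lie near 0.

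The receptor gene glp-1 (WBGene00001609) lies on chromosome III at 9092241 to 9099698 on the plus strand of WBcel235. Its level was 233, 81.9, 254, 222 and 221 CPM in double-mutant libraries 1 to 5, 226, 219, 217, 261 and 266 CPM in fndc-1 libraries 1 to 5, and 196, 248, 245, 233 and 264 CPM in wild-type libraries 1 to 5. The 3 strains overlapped, and double-mutant library 2 lay far below all other libraries. Relative to wild type, glp-1 had a log2 fold change of -0.23 in the double mutant (SE 0.218, 95% interval -0.66 to 0.19, edgeR adjusted p = 0.5352) and of 0.002 in fndc-1 (SE 0.217, interval -0.42 to 0.43, adjusted p = 0.9981). Without double-mutant library 2 the value for the double mutant was -0.05. The last exon bases of glp-1 overlap those of ZK507.1 on the other strand by 18 bases, and ZK507.1 had at most 1.74 CPM.

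Partners of GLP-1 in the niche pathway also passed no test. The ligand gene lag-2 was low, at 0.702 ± 0.328 CPM in the double mutant, 0.703 ± 0.205 CPM in fndc-1 and 0.785 ± 0.27 CPM in wild type. The nuclear effector lag-1 averaged 98.2 ± 33.1 CPM in the double mutant, 115 ± 7.86 CPM in fndc-1 and 118 ± 9.41 CPM in wild type. The Notch target lst-1 averaged 115 ± 29.2 CPM in the double mutant, 128 ± 7.55 CPM in fndc-1 and 141 ± 8.74 CPM in wild type. Of these it came nearest to the threshold, with a log2 fold change of -0.29 for the double mutant against wild type (SE 0.145, edgeR adjusted p = 0.2565), which was -0.17 without double-mutant library 2. The other target, sygl-1, averaged 77.3 ± 21.4 CPM in the double mutant, 80.1 ± 11.8 CPM in fndc-1 and 88.4 ± 6.96 CPM in wild type. Among 15 genes for Notch ligands, receptors, proteases and effectors, 0 passed in any comparison with all libraries in edgeR. With the double mutant set against wild type DESeq2 called 2 of them lower, where it called 1370 of 15032 genes in either direction. Without double-mutant library 2 edgeR called 736 of 15127 genes between fndc-1 and wild type, among them 1 of the 15, lower in fndc-1. That gene, named here after its values were seen, was epn-1 (log2 -0.23, adjusted p = 0.0454). Against wild type the median log2 fold changes of the 15 genes were -0.21 in the double mutant and -0.03 in fndc-1. When the double mutant was set against fndc-1 their median was -0.17. Without double-mutant library 2 the medians for the double mutant were -0.09 against wild type and -0.02 against fndc-1.

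The PUF genes fbf-1 and fbf-2 are near-identical neighbours on the minus strand of chromosome II. fbf-1 (WBGene00001401) spans 6078263 to 6080843 and fbf-2 (WBGene00001402) spans 6088863 to 6091480, with 8019 bases between them. How reads that map to both were counted is not given in the sources used here, so the division of counts between them is uncertain. The level of fbf-1 was 29.4, 19.4, 33.1, 31.5 and 31.2 CPM in double-mutant libraries 1 to 5, 31.3, 28.5, 31, 34.3 and 35.8 CPM in fndc-1 libraries 1 to 5, and 25.3, 28.7, 31.9, 27.5 and 31.2 CPM in wild-type libraries 1 to 5. All strains overlapped for fbf-1. On the other strand H12I13.6 shares 15 exon bases with fbf-1 and had at most 0.518 CPM. The log2 fold change of fbf-1 against wild type was 0.15 in fndc-1 (SE 0.126, 95% interval -0.09 to 0.40, edgeR adjusted p = 0.6558), and its interval in the double mutant against wild type was -0.25 to 0.25.

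For fbf-2 the values were 23.9, 16, 22.7, 24.2 and 23.8 CPM in double-mutant libraries 1 to 5, 24.1, 22.2, 22.4, 25.1 and 27 CPM in fndc-1 libraries 1 to 5, and 18.2, 21.5, 21.3, 20.6 and 19 CPM in wild-type libraries 1 to 5. Every fndc-1 library lay above every wild-type library, which held for 1 of the 8 genes and for 4.0% of all genes in that direction (8.03% in either). Between the double mutant and wild type 0 of the 8 genes lay apart in this way, where 6.63% of all genes did, and between the double mutant and fndc-1 0 of 8, where 4.22% did. Apart from library 2, the double-mutant libraries also lay above every wild-type library for fbf-2, a subset for which the share of all genes was not computed. The means were 24.15 ± 2.03 CPM in fndc-1 and 20.12 ± 1.48 CPM in wild type (SD, n = 5 each). The log2 fold change was 0.26 (SE 0.110, 95% interval 0.05 to 0.48), which did not pass the edgeR test (unadjusted p = 0.02972, adjusted p = 0.2689). The adjusted p of fbf-2 was 0.05643 without double-mutant library 2 and 0.04629 without double-mutant libraries 2 and 4, the only setting in which any of the 8 genes passed. In the double mutant against wild type the log2 fold change was 0.14 (95% interval -0.08 to 0.35), and 0.21 without library 2.

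The share of the counts of both PUF genes that was counted as fbf-2 was 44.8%, 45.1%, 40.7%, 43.5% and 43.3% in double-mutant libraries 1 to 5, 43.5%, 43.8%, 41.9%, 42.3% and 43.0% in fndc-1, and 41.8%, 42.8%, 40.1%, 42.9% and 37.8% in wild type. The strains overlapped. For scale, the 95% Wilson interval of the share was 43.0% to 47.3% in double-mutant library 2 and 36.1% to 39.5% in wild-type library 5, counting error only. The share averaged 42.9% ± 0.787 in fndc-1 and 41.1% ± 2.15 in wild type (SD, n = 5 each), a difference of 1.81 percentage points (exact two-sided permutation p = 0.0952, 0.143 adjusted over 3 comparisons). In the double mutant it averaged 43.5% ± 1.77, which was 2.40 points above wild type (exact p = 0.0952, adjusted 0.143) and 0.589 points above fndc-1 (exact p = 0.516). The smallest p this exact test can give is 0.00794. Without double-mutant library 3 the difference between the double mutant and wild type was 3.11 points, with an adjusted exact permutation p of 0.0476. Of 20 other settings for this comparison, 19 did not pass, with adjusted exact permutation p up to 0.429. Among 10 Notch targets and stem cell regulators, PUF genes included, 0 passed in any comparison with all libraries.

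The meiotic entry gene gld-1 (WBGene00001595) lies on chromosome I at 7695681 to 7698222 on the plus strand. It held 1273, 434, 1364, 1117 and 1157 CPM in double-mutant libraries 1 to 5, 1140, 1085, 1132, 1349 and 1413 CPM in fndc-1 libraries 1 to 5, and 1072, 1225, 1318, 1185 and 1324 CPM in wild-type libraries 1 to 5. With the exception of double-mutant library 2, all libraries lay between 1072 and 1413 CPM. The log2 fold change of gld-1 was -0.001 for fndc-1 against wild type (SE 0.221, 95% interval -0.43 to 0.43, edgeR adjusted p = 0.999) and -0.20 for the double mutant against wild type (SE 0.221, adjusted p = 0.6037). Without double-mutant library 2 the value for the double mutant was -0.01.

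Of 14 RNA regulators of meiotic entry and of the choice between sperm and oocyte, 1 was higher in fndc-1 than in wild type. Over all genes 1.87% passed in that comparison, in either direction. Of the 14 regulators 0 passed in the other comparisons with all libraries. The gene that passed was fog-3, which promotes the sperm fate. It averaged 1.302 ± 0.282 CPM in fndc-1 and 0.5997 ± 0.0892 CPM in wild type (SD, n = 5 each), with no overlap (log2 1.11, SE 0.265, edgeR adjusted p = 0.04584). The call of fog-3 was lost in 16 of 27 other settings, with adjusted p up to 0.1242. Its level in the double mutant averaged 0.9431 ± 0.359 CPM, and the test between the double mutant and fndc-1 did not pass (log2 -0.46, adjusted p = 0.5041). Once double-mutant library 2 was left out, 1157 of 15127 genes passed for the double mutant against wild type, among them 2 of the 14. They were, as named after their values were seen, fog-3, which was higher (log2 0.81, edgeR adjusted p = 0.04669), and fog-2, a second regulator of the sperm fate, which was lower (log2 -0.23, adjusted p = 0.03161). DESeq2 with all libraries called 1 of the 14 lower there, where it called 1370 of 15032 genes in either direction. Over 33 sperm genes the summed level was 117 to 495 CPM in fndc-1 and 57.9 to 336 CPM in wild type. Of the 31 tested, 0 passed and 0 had an unadjusted p under 0.05, and their median log2 fold change was 0.72. Within fndc-1, 30 of these 31 were higher in libraries 4 and 5 than in libraries 1, 2 and 3, with a median log2 difference of 1.34, whereas fog-3 in libraries 4 and 5 had 0.712 of its mean in the others. The part of sperm genes in the fog-3 result was not tested.

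The KH-domain gene mex-3 (WBGene00003229) encodes an RNA-binding protein of mitotic germ cells, oocytes and early embryos, and it lies on chromosome I at 127285 to 134270 on the plus strand. Its level was 470, 148, 540, 412 and 425 CPM in double-mutant libraries 1 to 5, 409, 403, 410, 511 and 527 CPM in fndc-1 libraries 1 to 5, and 428, 513, 504, 458 and 525 CPM in wild-type libraries 1 to 5. The strains overlapped, although fndc-1 libraries 1, 2 and 3 lay below every wild-type library, a subset for which the share of all genes was not computed. The log2 fold change of mex-3 was -0.10 for fndc-1 against wild type (SE 0.239, 95% interval -0.57 to 0.36, edgeR adjusted p = 0.9145) and -0.28 for the double mutant against wild type (SE 0.239, adjusted p = 0.4896), or -0.09 without library 2. Over 13 genes listed as zygotic in the early embryo, levels summed to 16.4 to 30.5 CPM in the double mutant, 19.8 to 32.2 CPM in fndc-1 and 21.6 to 35.4 CPM in wild type. Whether these counts came from embryos in the uterus or from other tissues, and the part of embryos in the mex-3 level, was not tested. Among 14 RNA-binding proteins of oocytes and embryos 0 passed, and all 14 had values below 0 in both mutants against wild type. The medians were -0.10 in fndc-1 and -0.24 in the double mutant. Without double-mutant library 2 the median for the double mutant against wild type was -0.13, with all 14 values below 0.

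None of the P granule genes pgl-1, pgl-3 and glh-1 passed a test between strains. The scaffold gene pgl-1 (WBGene00003992, chromosome IV, 6974441 to 6977318, minus strand) had 512, 324, 548, 501 and 487 CPM in double-mutant libraries 1 to 5, 448, 431, 453, 550 and 580 CPM in fndc-1 libraries 1 to 5, and 437, 479, 498, 442 and 499 CPM in wild-type libraries 1 to 5. Its paralog pgl-3 (WBGene00003994, chromosome V, 4755979 to 4758587, plus strand) had 295, 167, 335, 284 and 278 CPM in double-mutant libraries 1 to 5, 245, 234, 265, 349 and 344 CPM in fndc-1 libraries 1 to 5, and 253, 302, 336, 278 and 331 CPM in wild-type libraries 1 to 5. Both genes overlapped between all strains. For fndc-1 against wild type the log2 fold change was 0.06 for pgl-1 (95% interval -0.19 to 0.32) and -0.06 for pgl-3 (interval -0.39 to 0.27). In the double mutant against wild type it was 0.01 for pgl-1 (interval -0.24 to 0.26) and -0.14 for pgl-3 (interval -0.47 to 0.19).

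The helicase gene glh-1 (WBGene00001598) encodes a Vasa homolog and lies on chromosome I at 6854478 to 6857536 on the plus strand. It had 544, 306, 601, 630 and 524 CPM in double-mutant libraries 1 to 5, 488, 467, 472, 616 and 655 CPM in fndc-1 libraries 1 to 5, and 382, 448, 516, 420 and 484 CPM in wild-type libraries 1 to 5. All double-mutant libraries but library 2 lay above every wild-type library, and the fndc-1 libraries overlapped with wild type. Leaving library 2 aside followed from its values, and the share of all genes that lay apart in this way was not computed. The log2 fold change of glh-1 was 0.26 for fndc-1 against wild type (SE 0.169, 95% interval -0.07 to 0.59, edgeR adjusted p = 0.5329) and 0.21 for the double mutant against wild type (SE 0.169, interval -0.12 to 0.54, adjusted p = 0.4659). Without double-mutant library 2 the value in the double mutant was 0.34 (adjusted p = 0.09416). Among 19 germ granule genes 0 passed in any comparison with all libraries in edgeR. DESeq2 called 1 lower for the double mutant relative to fndc-1, where it called 363 of 15032 genes in either direction. Against wild type the medians of the 19 germ granule genes were -0.14 in the double mutant and -0.02 in fndc-1. When the double mutant was set against fndc-1 their median was -0.14. Without double-mutant library 2 the medians for the double mutant were -0.03 against wild type and 0 against fndc-1.

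Double-mutant library 2 was below the other 4 libraries of its strain for 8 of 8 genes, an event seen in 36.3% of all genes. The summed level of the 8 genes was 1497 CPM in that library and 3146 to 3697 CPM in the other double-mutant libraries, and the ratio of library 2 to their mean differed between the genes. This ratio was 0.320 for mex-3, 0.353 for glp-1 and 0.354 for gld-1. It was 0.533 for glh-1, 0.560 for pgl-3, 0.620 for fbf-1, 0.634 for pgl-1 and 0.676 for fbf-2, while the median ratio of all genes was 0.923. The 5 genes with the higher ratios kept a larger part of their level than the receptor, the meiotic entry gene and mex-3. Some lists hold some of the 8 genes, so their values partly restate them. The Notch signalling list includes glp-1, the meiotic entry list gld-1, and the germ granule list pgl-1, pgl-3 and glh-1. With these genes included, the median ratio was 0.418 for Notch signalling, 0.427 for meiotic entry and 0.505 for germ granules. It was 0.653 for DNA replication and 0.876 for meiotic chromosomes. Among the other tissue markers it was 0.975 for neurons, 0.933 for intestine, 0.782 for hypodermis, 0.740 for somatic gonad and 0.647 for body muscle. Lower medians were thus not limited to germline lists. Library 2 was below every other double-mutant library for 14 of 15 Notch signalling, 13 of 14 meiotic entry and 18 of 19 germ granule genes. For DNA replication the count was 13 of 16, for meiotic chromosomes 15 of 23. It was 5 of 7 for somatic gonad, 4 of 8 for body muscle and 2 of 8 for neurons. For intestine it was 1 of 7 and for hypodermis 0 of 8. Hypodermis markers summed to 2141 CPM in library 2, against 1300 to 1707 CPM in the other double-mutant libraries. Embryo, sperm, and oocyte and eggshell markers had median ratios of 0.764, 0.727 and 0.678. Library 2 was below every other double-mutant library for 0 of 10, 2 of 31 and 8 of 11 of them. Without library 2 the double mutant held 232 ± 15.4 CPM of glp-1, 1228 ± 112 CPM of gld-1 and 462 ± 57.9 CPM of mex-3 (SD, n = 4), in place of 202.3 ± 68.6, 1069 ± 368 and 398.9 ± 149 CPM with all 5 libraries.

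**Figure D3:**
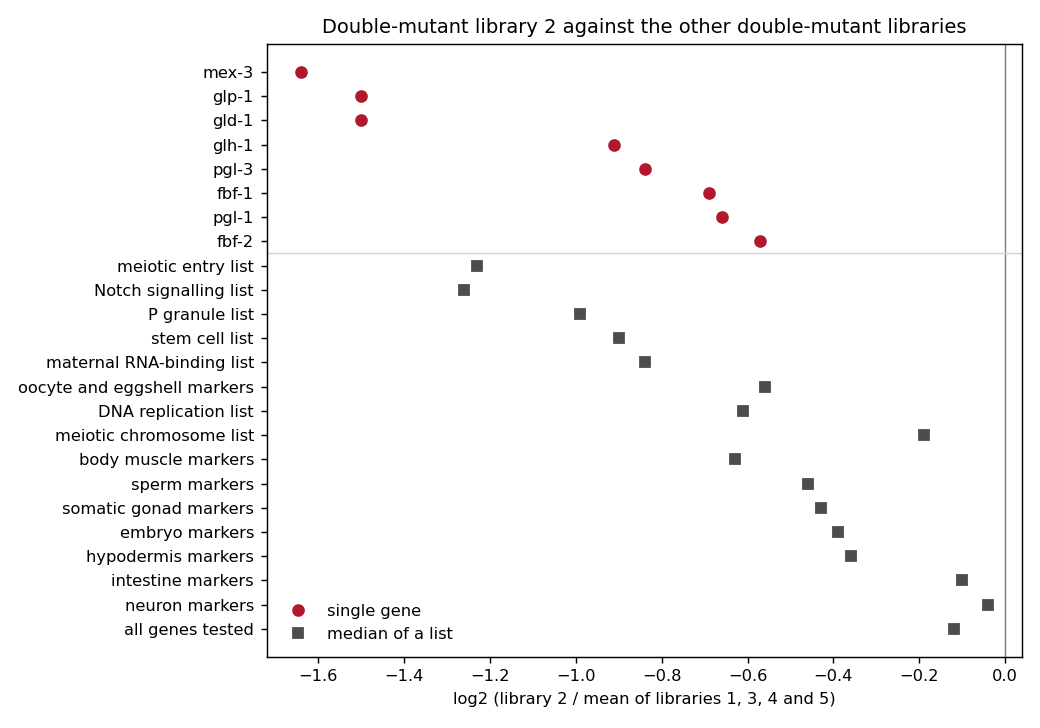
Log2 ratio of double-mutant library 2 to the mean of double-mutant libraries 1, 3, 4 and 5 (x axis) for the 8 genes (red circles) and as medians of gene lists and of all genes tested (grey squares). The lowest values are those of mex-3, glp-1 and gld-1, at -1.64, -1.50 and -1.50, and neuron markers lie nearest to 0.

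The fndc-1 libraries fell into a lower and a higher set for these genes. Libraries 4 and 5 both lay above libraries 1, 2 and 3 for 8 of 8 genes, as they did for 33.9% of all genes. The ratio of the means of these sets was smallest for fbf-2, at 1.14, and largest for pgl-3, at 1.40. Germ granule genes were higher in libraries 4 and 5 for 19 of 19 and oocyte RNA-binding genes for 14 of 14. The germ granule list includes pgl-1, pgl-3 and glh-1, and the RNA-binding list includes gld-1 and mex-3. When fndc-1 libraries 4 and 5 were left out, the log2 fold change against wild type was -0.08 for glp-1, 0.10 for fbf-1, 0.22 for fbf-2, -0.10 for gld-1, -0.22 for mex-3, -0.06 for pgl-1, -0.25 for pgl-3 and 0.11 for glh-1. Of the 8 genes 0 passed, with edgeR adjusted p between 0.4495 and 0.9654.

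Ratios between genes within a library do not depend on its depth or scaling. They were computed after the levels had been seen and are given as a description. The ratio of gld-1 to glp-1 counts lay between 4.93 and 5.47 in all 15 libraries, averaging 5.28 ± 0.164 in the double mutant, 5.14 ± 0.143 in fndc-1 and 5.17 ± 0.232 in wild type (SD, n = 5 each), and it was 5.30 in double-mutant library 2. The ratio of mex-3 to glp-1 counts was 1.95 ± 0.129 in the double mutant, 1.90 ± 0.0743 in fndc-1 and 2.05 ± 0.0838 in wild type. In double-mutant library 2 it was 1.80, the lowest of the 15 libraries.

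Relative to glp-1, glh-1 was higher in both mutants than in wild type. The ratio of glh-1 to glp-1 counts was 2.34, 3.74, 2.37, 2.84 and 2.37 in double-mutant libraries 1 to 5, 2.16, 2.13, 2.18, 2.36 and 2.46 in fndc-1 libraries 1 to 5, and 1.94, 1.80, 2.10, 1.81 and 1.83 in wild-type libraries 1 to 5. Neither mutant overlapped with wild type. Over all genes, a ratio to glp-1 above that of every wild-type library was found for 3.86% in the double mutant and 2.40% in fndc-1. The ratio of fbf-2 to glp-1 counts averaged 0.121 ± 0.0422 in the double mutant, 0.102 ± 0.0037 in fndc-1 and 0.0853 ± 0.00793 in wild type, and it did not overlap between fndc-1 and wild type. In double-mutant library 2 it was 0.195, and without that library the double mutant averaged 0.102 ± 0.00902 (SD, n = 4). Of the 7 genes set against glp-1, 2 were thus higher with no overlap in fndc-1 and 1 in the double mutant, against wild type, and 0 were lower. For pgl-1, the ratio to glp-1 counts averaged 2.56 ± 0.786 in the double mutant, 2.06 ± 0.0899 in fndc-1 and 1.99 ± 0.142 in wild type, and the strains overlapped. It was 3.96 in double-mutant library 2, and without that library the double mutant averaged 2.20 ± 0.0421 (SD, n = 4). For glh-1 that average was 2.48 ± 0.241.

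**Figure D4:**
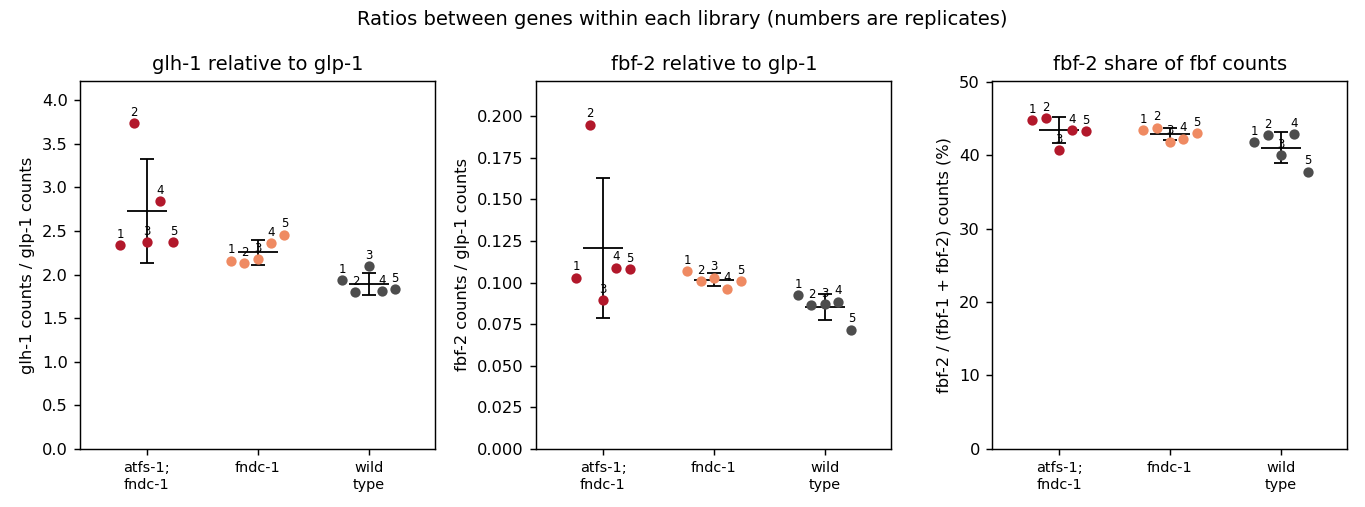
Ratio of glh-1 to glp-1 counts (left), of fbf-2 to glp-1 counts (middle) and fbf-2 as a share of fbf-1 and fbf-2 counts in percent (right) on the y axes, for the double mutant, fndc-1 and wild type on the x axes. Points are libraries with replicate numbers, bars are mean and SD of 5 libraries. In the left panel all mutant libraries, from 2.13 upwards, lie above the wild-type libraries, of which the highest is 2.10.

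Lists of genes of meiosis and of dividing cells were examined beside the 8 genes. Of 23 genes of meiotic chromosomes, 22 had values below 0 in the double mutant against wild type, with a median log2 fold change of -0.14. With all libraries 1 of the 23 passed, only in that comparison, where 4.71% of all genes did. It was him-8, which pairs the X chromosomes, at 44.9 ± 3.64 CPM in the double mutant and 52.5 ± 1.17 CPM in wild type (SD, n = 5 each), with no overlap (log2 -0.23, SE 0.0599, edgeR adjusted p = 0.04545). The call of him-8 was lost in 21 of 27 other settings, with adjusted p up to 0.2161. The number of these genes that were lower depended on the setting. It was 4 without double-mutant library 2, namely him-8, pch-2, syp-2 and syp-3, also named after their values were seen, which act in the pairing and synapsis of meiotic chromosomes, with log2 values between -0.26 and -0.19. It was 3 with DESeq2, 2 without double-mutant library 1 or 3 or with a filter of 1 CPM, and 0 in most other settings. Over all genes, 1157 of 15127 passed in that comparison without double-mutant library 2 and 1370 of 15032 with DESeq2, in either direction. Among 16 DNA replication genes 0 passed in any comparison with all libraries, and the double mutant had values below wild type for 16 of 16, with a median of -0.19. Oocyte and eggshell markers, of which 0 of 11 passed, had medians of -0.11 in fndc-1 and -0.22 in the double mutant against wild type. Without double-mutant library 2 the medians for the double mutant against wild type were -0.09 for meiotic chromosomes, -0.10 for DNA replication and -0.12 for oocyte and eggshell markers. Markers of hypodermis, body muscle and sperm lay on the other side, which did not hold for every tissue. In the double mutant against wild type, intestine markers had a median of 0.07, with 4 of 7 above 0 and 1 passing. Neuron markers were above 0 for 4 of 8. The medians were -0.08 for somatic gonad and -0.12 for embryo markers. Set against wild type, the double mutant had 8 of 8 hypodermis markers above 0, with a median of 1.08, and 2 passed. Body muscle markers were above 0 for 8 of 8, with a median of 0.29, and 1 passed. Sperm markers were above 0 for 30 of 31, with a median of 1.56, and 0 passed, while 19 of 31 had an unadjusted p under 0.05. Of all genes 49.7% were above 0. When library 2 was left out, these medians were 0.91 for hypodermis, 0.38 for body muscle and 1.64 for sperm. The part of these tissues in the germline values was not tested.

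The genes whose log2 CPM followed the mean of the 8 genes most closely over the 15 libraries, among 5236 candidates with a mean of at least 5 CPM, were tars-1, rha-1, aars-2, lap-2, maph-1.3 and nkcc-1. Pearson's r with that mean was 0.993 for tars-1, 0.992 for rha-1 and aars-2, 0.991 for lap-2 and 0.990 for maph-1.3 and nkcc-1. As points, the libraries share strains and scaling factors, and double-mutant library 2 lies far from the rest. Without it r was 0.966 for tars-1, 0.971 for rha-1, 0.960 for aars-2, 0.984 for lap-2, 0.948 for maph-1.3 and 0.969 for nkcc-1.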

How the data were processed

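The authors deposited raw counts per gene for 15 libraries, not normalized. The submitters' processing notes name the build WBcel235, the trimmer Trimmomatic 0.36, the aligner STAR 2.6.0c and, for counting, featureCounts of Subread 1.6.1. Whether counting used strand, which annotation release it used and how it treated multi-mapping reads is not given in the sources used here, and the labels name both a TruSeq RNA and a TruSeq Stranded mRNA kit. Total counts were 46984106 to 61921123 per library. Pairs of replicates differed beyond sampling noise (lowest chi-square per gene 8.07, genes with at least 50 counts). Genes were filtered with filterByExpr, scaled by TMM and tested two-sided with edgeR 4.0.16 (quasi-likelihood F-test, R 4.3.3) on all 15 libraries with strain means, with Benjamini-Hochberg adjustment over 15032 genes and a threshold of 0.05. The script was tested on simulated data. SE was computed from F as the absolute log2 fold change over the root of F, and 95% intervals use the normal quantile. Alternatives were upper-quartile and RLE scaling, limma-voom (limma 3.58.1), DESeq2 1.42.0, other filters, only the strains compared, a replicate block and leaving out libraries. The share of fbf-2 was tested by exact permutation. Positions and exon lengths came from the Ensembl annotation of WBcel235, and levels per kilobase divide CPM by the merged exon length. Beside the 8 genes, the named genes were fndc-1, atfs-1, lag-2, lag-1, lst-1, sygl-1, up to 3 genes past the threshold per list and comparison, and the 6 most correlated genes. In the lists, znfx-1 was found as ZK1067.2, and opt-2 and genes below the filter were not used. The 8 genes were kept in the lists that name them. These were glp-1 in Notch signalling, fbf-1, fbf-2 and mex-3 in stem cell regulators, and gld-1 in meiotic entry. They were also pgl-1, pgl-3 and glh-1 in germ granules, and mex-3 and gld-1 in oocyte and embryo RNA-binding proteins. Members, lists, tests and rules were chosen with earlier results of these data known.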

Additional observations from a re-analysis of the deposited data

Results flagged for a closer look

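The 6 genes chosen for following the mean of the 8 genes were chosen over libraries that include double-mutant library 2 and are left out of the next count. Among the remaining 102 groups of 5 libraries, the most extreme library was separated from the others by more than 0.71 of the range of the group in 11, and 9 of these 11 were double-mutant library 2. Chance gives about 1 in 20 such groups, here 5.1, and the genes are not independent. Among the 8 germline genes, double-mutant library 2 stood apart for glp-1 at 81.9 CPM, fbf-1 at 19.4 CPM, fbf-2 at 16 CPM, gld-1 at 434 CPM and pgl-1 at 324 CPM. The other double-mutant libraries held 221 to 254 CPM of glp-1, 29.4 to 33.1 CPM of fbf-1, 22.7 to 24.2 CPM of fbf-2, 1117 to 1364 CPM of gld-1 and 487 to 548 CPM of pgl-1.

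For the genes chosen by that correlation the same library was also separated, which restates how they were chosen, at 209 CPM for tars-1, 76.2 CPM for rha-1, 202 CPM for aars-2, 218 CPM for lap-2, 47.2 CPM for maph-1.3 and 39.7 CPM for nkcc-1. It was also separated for the summed Notch signalling list, which includes glp-1, at 532 CPM, against 1126 to 1358 CPM in the other double-mutant libraries. The summed meiotic entry list, of which gld-1 made up 434 CPM, was at 1273 CPM there, against 3204 to 3925 CPM. The somatic gonad markers were at 305 CPM there, against 609 to 717 CPM. The fndc-1 transcript was highest there, at 10.2 CPM, against 7.04 to 7.82 CPM in the other double-mutant libraries.

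Double-mutant library 4 was separated for ZK507.1, the antisense neighbour of glp-1, at 1.74 CPM against 0.311 to 0.678 CPM. It was also separated for the summed sperm markers at 986 CPM, against 208 to 327 CPM. Wild-type library 1 was separated for maph-1.3 at 116 CPM, against 141 to 151 CPM in the other wild-type libraries.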

How the results depend on the processing

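Over 27 settings, 577 of 648 log2 fold changes of the 8 genes kept their sign and their side of the threshold, 70 changed sign without passing it, and 1 (fbf-2) passed. A missed threshold does not show equal levels: changes inside the intervals of the report are below what 5 libraries per strain resolve. The number of genes past the threshold, 281 for fndc-1 over wild type, 708 for the double mutant over wild type and 147 for the double mutant over fndc-1, was 779, 1370 and 363 with DESeq2. It was 575 (fndc-1 against wild type) and 275 (double mutant against wild type) with only the strains compared. Leaving out double-mutant libraries 2 and 4 gave 1116 for fndc-1 against wild type, with 1 of the 8 genes, and leaving out wild-type libraries 2 and 4 gave 115 for fndc-1 and 1068 for the double mutant against wild type. A setting chosen after seeing the data, without double-mutant library 2, fndc-1 libraries 4 and 5 and wild-type libraries 2 and 4 together, gave 935, 1779 and 355.

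Leaving out single libraries gave 146 to 736, 397 to 1157 and 106 to 161 genes in these comparisons. The highest counts, 736 and 1157, were without double-mutant library 2. Counts for fndc-1 against wild type were 149, 146 and 157 without fndc-1 libraries 1, 2 and 3 and 162, 152 and 185 without wild-type libraries 2, 4 and 5. For the double mutant against wild type they were 447 and 407 without double-mutant libraries 4 and 5 and 425, 397 and 400 without wild-type libraries 2, 4 and 5. The difference in the fbf-2 share was 0.992 to 2.26 points for fndc-1 and 1.58 to 3.11 points for the double mutant against wild type when single libraries were left out. The causes were not tested.

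Whether the replicate numbers pair the libraries is not settled by these values. Same-numbered libraries had correlations of their deviations between -0.591 and 0.664, and 6 of 15 libraries matched their own number best. Number 4 was positive in each comparison, at 0.43, 0.539 and 0.664. With the replicate block 155 genes passed for fndc-1 against wild type, and the fbf-2 share had exact permutation p of 0.125 for fndc-1 and 0.0625 for the double mutant against wild type, where 0.0625 is the smallest possible.

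Sign changes of values that passed no test were as follows, in log2 fold change. For fndc-1 against wild type, gld-1 was at 0.0052 with DESeq2 and with RLE factors, 0.0049 with the 1 CPM filter, 0.0137 with no filter and 0.016 with upper-quartile factors. In that comparison glp-1 was at -0.0004 with only the strains compared and -0.0063 with the replicate block. It was at -0.0081 without double-mutant libraries 2 and 4, -0.0753 without fndc-1 libraries 4 and 5 and -0.0949 in the setting chosen after seeing the data. There pgl-1 was at -0.0554 and -0.1083 in the last pair of settings. For the double mutant against wild type, pgl-1 was at -0.0075 with DESeq2 and with RLE factors, -0.0092 with limma-voom, -0.0062 with the replicate block and -0.0104 without wild-type libraries 2 and 4. In that comparison fbf-1 was at 0.0142 with no filter, 0.0166 with only the strains compared, 0.0634 with upper-quartile factors, 0.0897 without double-mutant libraries 2 and 4, 0.0054 without fndc-1 libraries 4 and 5 and 0.0729 in the setting chosen after seeing the data. Without double-mutant libraries 2 and 4, gld-1 was at 0.0258, lag-2 at 0.2178 and sygl-1 at 0.0082.

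For the double mutant against fndc-1, leaving out double-mutant libraries 2 and 4 gave 0.0374 for gld-1, 0.0706 for mex-3, 0.0556 for pgl-1, 0.0661 for pgl-3, 0.0345 for glh-1, 0.3853 for lag-2, 0.0246 for lag-1, 0.0504 for lst-1, 0.1616 for sygl-1 and -0.0071 for fndc-1. Leaving out fndc-1 libraries 4 and 5 gave 0.071 for pgl-1, 0.109 for pgl-3, 0.1064 for glh-1, 0.3042 for lag-2 and 0.0827 for sygl-1, and upper-quartile factors gave 0.0202 for lag-2. The setting chosen after seeing the data gave 0.0622 for glp-1, 0.0359 for fbf-1, 0.0358 for fbf-2, 0.1214 for gld-1, 0.1675 for mex-3, 0.1933 for pgl-1, 0.255 for pgl-3, 0.2619 for glh-1, 0.5369 for lag-2, 0.0237 for lag-1, 0.0437 for lst-1, 0.2469 for sygl-1 and -0.0108 for fndc-1. Leaving out single libraries also changed signs. For fndc-1 over wild type the values then ran from -0.0589 to 0.0575 for glp-1, from -0.0456 to 0.0412 for gld-1 and from -0.0565 to 0.0198 for lag-1. For the double mutant over wild type they ran from -0.0739 to 0.0952 for fbf-1, from -0.0662 to 0.102 for pgl-1 and from -0.3527 to 0.0375 for lag-2. For the double mutant over fndc-1 they ran from -0.3216 to 0.0222 for mex-3, from -0.1199 to 0.0483 for pgl-1, from -0.1743 to 0.0465 for pgl-3, from -0.1179 to 0.0847 for glh-1, from -0.1847 to 0.2054 for lag-2, from -0.1621 to 0.0928 for sygl-1 and from -0.0071 to 0.1512 for fndc-1.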
